A study of Mus musculus with 4 samples.

Results

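Ciliated airway cells were studied in lungs 14 days after bleomycin, in 2 WT and 2 *Tubb3*-/- mice. A cell was taken as ciliated when it held at least 1 unique molecular identifier (UMI) of at least 3 of the 5 genes *Foxj1*, *Ccdc153*, *Tmem212*, *Dynlrb2* and *Rsph1*, and no UMI of *Ptprc* (immune cells), *Cdh5* (endothelial cells) or *Pdgfra* (fibroblasts). This rule found 79 cells among the 30860 cells that passed the quality limits, out of 32121 in the files. The members were therefore chosen by these 8 genes, whose levels are given below as a description only.

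All mice had received 0.8 U/kg bleomycin into the trachea, so that no uninjured lung stands beside them. They were between 8 and 11 weeks old, and both sexes were used in the study. The *Tubb3*-/- mice were homozygous for a *Tubb3-Cre* knock-in, in which *Cre* sits at the translation start of *Tubb3*, the gene of the neuronal β-tubulin isotype, and the WT mice were littermates. Each mouse gave a whole-cell library, depleted of TER-119+ red blood cells, and a mural cell-enriched mesenchymal library, depleted of CD31+, CD45+, EpCAM+ and TER-119+ cells. The 4 samples of a kind were tagged and sequenced as 1 pool. The EpCAM depletion removes epithelium, and the mesenchymal libraries held 2, 2, 2 and 4 of the ciliated cells (WT 1, WT 2, *Tubb3*-/- 1 and *Tubb3*-/- 2), against 27, 10, 22 and 10 in the whole-cell libraries.

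Ciliated cells line the conducting airways and carry motile cilia that move mucus toward the throat. The shaft of such a cilium, the axoneme, is a ring of doublet microtubules around a central pair, along which outer and inner dynein arms, radial spokes and nexin links are spaced. The transcription factor FOXJ1 switches on most of the genes for these parts, and RFX factors act with it through a DNA element called the X-box.

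The ciliated cells of the 4 mice held 556228, 207504, 387447 and 257381 UMIs (WT 1, WT 2, *Tubb3*-/- 1, *Tubb3*-/- 2). Their median UMIs per cell were 16359, 17244, 14823 and 19113. Levels are given below as CPM, which are UMIs summed over the ciliated cells of a mouse and scaled to 1000000 with edgeR's TMM factors. The UMIs of *Tubb3* check the labels over all cells, at 0.858 to 5.36 CPM in the 4 WT libraries and 0.275 to 0.695 CPM in the 4 *Tubb3*-/- libraries. *Cre* had 4 UMIs in 3 of the *Tubb3*-/- libraries and none in a WT library. *Xist* and Y-linked genes placed WT 1 and *Tubb3*-/- 1 apart from WT 2 and *Tubb3*-/- 2, so that replicate number went with sex and both genotypes held 1 mouse of each. No cell barcode was shared within a pool, and 1 to 9 were shared between a whole-cell and a mesenchymal library.

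All 5 genes of the rule were found in 70 of the 79 cells, 4 of them in 2 cells and only 3 in 7 cells. Just outside the rule, 10 further cells without the excluded genes held 2 of the 5. Another 50 cells with at least 3 of the genes were left out for a UMI of an excluded gene, 31 of them for a single UMI. *Foxj1*, the master regulator, was found in 97.5% of the ciliated cells and 1.48% of the other whole-cell library cells. *Ccdc153*, a nexin link component, was found in 93.7% against 1.64%, and *Tmem212*, a membrane protein of ciliated cells, in 94.9% against 2.14%. *Dynlrb2*, a dynein light chain, was found in 96.2% against 2.34%, and *Rsph1*, a radial spoke head protein, in 97.5% against 2.11%. Markers that the rule did not use were as widespread. *Dnah5*, an outer arm dynein motor, was found in 96.2% against 0.994%, *Hydin*, of the central pair, in 94.9% against 1.41%, and *Sec14l3*, a lipid transfer protein, in 98.7% against 4.73%. Of the genes of epithelial junctions, *Epcam* was found in 92.4% against 12.5% and *Cdh1* in 96.2% against 9.59%. The other cells of the whole-cell libraries had median UMIs of 9346 to 12702 per cell, fewer than the ciliated cells. These markers bore out the label ciliated for the set as a whole.

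A set of 4 cells stood apart from the other 75. Each held more than 1000 UMIs of *Scgb1a1* or lacked both *Ccdc153* and *Tmem212*. Their axoneme genes took 0.134% to 1.30% of their UMIs, against 1.24% to 6.54% in the other 75. One, from the WT 1 whole-cell library, had 77068 UMIs, of which 45402 were *Scgb1a1*, the main secretory protein of club cells. It held no *Ccdc153* or *Tmem212*, but 27 UMIs of *Cdc20b*, 9 of *Ccno*, 6 of *Mcidas* and 5 of *Deup1*, genes of the centriole amplification that precedes ciliation. A second cell of the same library held 11027 *Scgb1a1* UMIs among 30180, together with all 5 genes of the rule. The other two came from the mesenchymal libraries of WT 2 and *Tubb3*-/- 2, lacked *Ccdc153* and *Tmem212*, and held 69 and 8 UMIs of *Ager*, a gene of alveolar type 1 cells. None of the 4 was scored as a doublet, but 1 of the other 75 was. That cell, from the WT 1 whole-cell library, had 4160 UMIs, with 12 of the immune gene *Tyrobp* and none of *Epcam* or *Cdh1*. Another of the 75, from the WT 2 mesenchymal library, held 78 UMIs of *Dcn* and 15 of *Col1a1*, both fibroblast genes. It also held 9 of *Msln*, a mesothelial gene. Results that rest on the 4 cells are given with and without them.

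Genes of centriole amplification were otherwise sparse. *Deup1*, the deuterosome scaffold, had a UMI in 38 of the 79 cells with at most 5 in any cell, *Ccno* in 6 cells, and *Mcidas* and *Cdc20b* in the 1 cell described above. *Krt5*, a basal cell keratin, was found in none of the 79 cells, which allows a share of up to 3.80% of cells with a UMI. The cell cycle genes *Mki67* and *Top2a* had a UMI in 2 and 3 cells.

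*Tubb3* itself had no UMI in any ciliated cell of either genotype, and 3 UMIs among the 1408560 of these cells would be 2.13 CPM. The targeted gene was therefore below detection in both genotypes here. Among the other tubulins, *Tubb4b*, the β-tubulin of motile cilia, had 1982 and 2234 CPM in WT mice and 1899 and 1524 CPM in *Tubb3*-/- mice. *Tuba1a* had 1468, 1693, 1251 and 1552 CPM, and *Tuba1b* 291, 442, 239 and 301 CPM, though reads of these α-tubulin copies may be split between them. *Tubb5* had 58.5, 67.5, 30.2 and 52.8 CPM. Of the 4 tubulin genes tested, none passed the test between genotypes, and in 2 both *Tubb3*-/- values lay below the WT values, as they did in 21.5% of all genes tested.

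The genes that most set these cells apart were ranked by the log2 ratio of their CPM in ciliated over all other whole-cell library cells. The leading 15 had ratios from 7.33 to 7.61 and included 3 genes of the rule. They were *Tmem212*, *Rp1*, *Spag17*, *Cfap299*, *Dnah5*, *Spag16*, *Rgs22*, *Cfap44*, *Ccdc153*, *Ak9*, *AU040972*, *Cfap54*, *Dynlrb2*, *Lrriq1* and *Fam183b*. *Spag17*, *Spag16* and *Cfap54* are central pair proteins, *Dnah5* is an outer arm dynein motor, and *Rp1* is a doublecortin-domain protein that binds microtubules. Each of the 15 was found in at least 63 of the 79 cells.

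Promoters of genes with this pattern are shown because a candidate RFX site lies close to the start of transcription in several of them. Promoter sequence came from RefSeq (GRCm38.p6) and covered 250 bases before to 50 bases after each start, and it was found for 244 of the 307 genes with at least 50 CPM in every mouse and a log2 ratio of at least 5. The X-box was searched on both strands. It matched in 28 of the 244 promoters (11.5%), against 263 of all 27025 promoters (0.973%). The windows below end at the start of transcription, with the match in capitals.
Cfap44: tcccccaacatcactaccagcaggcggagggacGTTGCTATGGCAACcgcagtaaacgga
Lrrc23: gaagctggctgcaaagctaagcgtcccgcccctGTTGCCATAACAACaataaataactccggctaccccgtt
Cfap45: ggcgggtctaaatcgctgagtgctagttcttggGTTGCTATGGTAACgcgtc
Tekt1: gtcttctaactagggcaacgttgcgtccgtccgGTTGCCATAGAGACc
Cfap52: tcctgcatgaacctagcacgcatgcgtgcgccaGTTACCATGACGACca
Iqcg: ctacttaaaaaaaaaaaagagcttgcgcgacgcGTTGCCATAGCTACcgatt

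These windows lie at chr16:44394739-44394798 on the plus strand (*Cfap44*), chr6:124779728-124779799 on the minus strand (*Lrrc23*), chr1:172521078-172521129 on the plus strand (*Cfap45*), chr11:72361883-72361930 on the minus strand (*Tekt1*), chr11:67965643-67965691 on the minus strand (*Cfap52*) and chr16:33056187-33056238 on the minus strand (*Iqcg*). The matches begin at positions -27, -39, -19, -15, -16 and -19 from the start in the same order. *Cfap44* and *Iqcg* encode a dynein tether and a nexin link protein, *Lrrc23* a radial spoke protein, and *Cfap45*, *Cfap52* and *Tekt1* proteins inside the doublet microtubules. The shorter RFX element GTTNCC, whose letters can form the first bases of an X-box, was found in 74.6% of the 244 promoters and 45.5% of all promoters. The forkhead element GTAAACA was found in 6.56% and 3.55%. None of the 3 genes of the rule that had a promoter sequence matched the X-box. A match describes letters only.

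Levels of the axoneme parts were of the same order in all 4 mice. *Foxj1* had 631, 738, 708 and 528 CPM (WT 1, WT 2, *Tubb3*-/- 1, *Tubb3*-/- 2), and its values overlapped between genotypes. *Rfx3*, an RFX factor, had 438, 400, 724 and 646 CPM. *Spag17* had 813, 680 (WT) and 966, 1024 CPM (*Tubb3*-/-), *Ccdc39*, a ruler protein that spaces the inner arms, 457, 478, 642 and 528 CPM, and *Rsph1* 646, 530, 656 and 662 CPM. Among the microtubule inner proteins and tektins, *Tppp3* had 1962, 1938, 1380 and 1414 CPM. *Ift74*, of the intraflagellar transport that builds the cilium, had 360, 322, 417 and 406 CPM. *Sec14l3* had 3161, 2260, 2434 and 3165 CPM. Of 129 listed axoneme genes outside the rule, 111 were in the files, 107 had a UMI in these cells, and 98 were abundant enough to be tested.

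**Figure D1:**
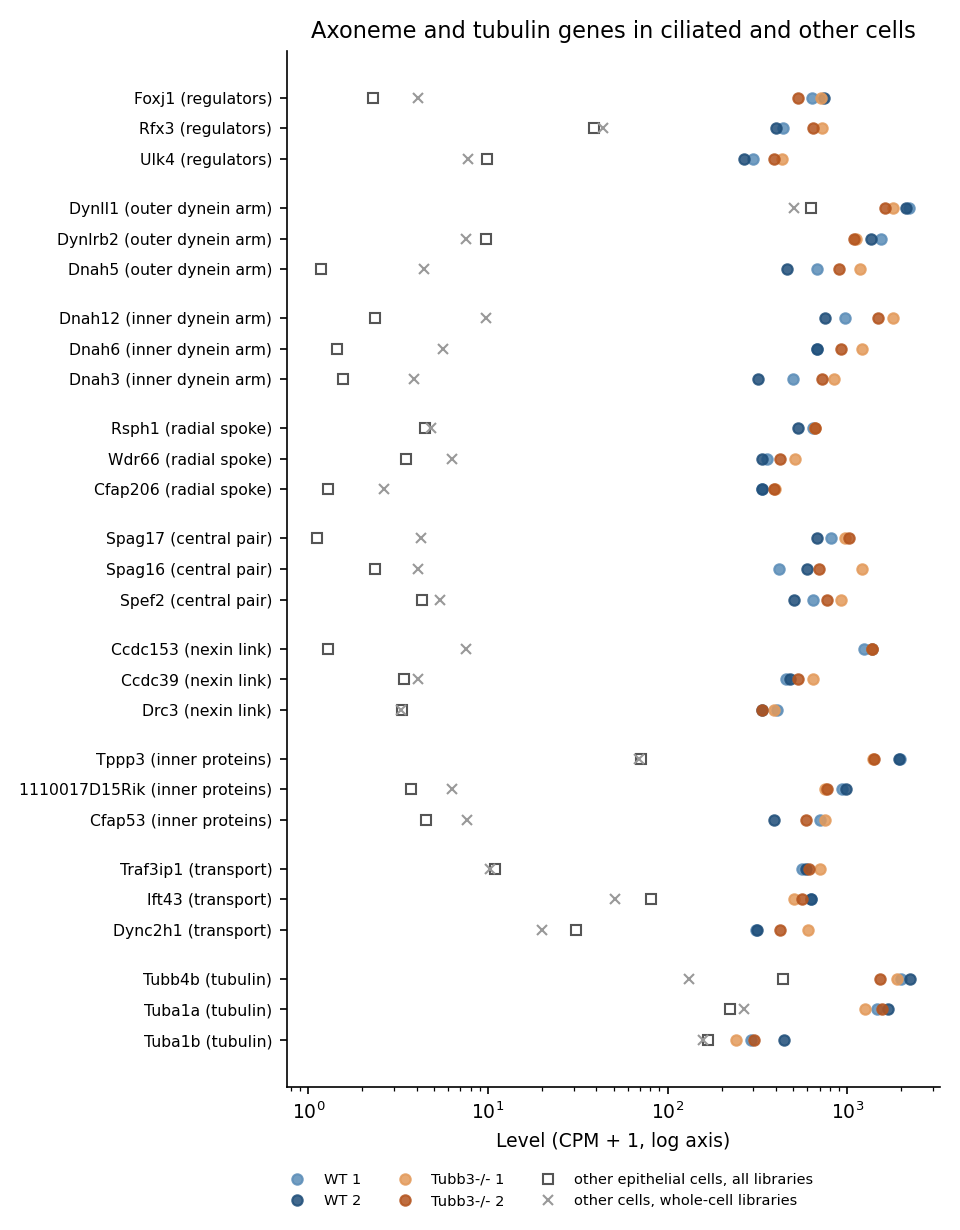
Level of each gene (CPM + 1, log axis) for the 3 most abundant members of each group: filled circles are the summed ciliated cells of each mouse, open squares other epithelial cells of all libraries and crosses all other cells of the whole-cell libraries. For most axoneme genes the 4 circles lie far to the right of the squares and crosses, as for *Spag17* with circles at 680 to 1024 CPM. For *Foxj1* and the other genes of the rule, this separation was in part set by the choice of cells.

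Ciliated cells made up 0.793%, 0.321%, 0.526% and 0.289% of the whole-cell libraries (WT 1, WT 2, *Tubb3*-/- 1, *Tubb3*-/- 2). The exact 95% binomial intervals, which cover counting error only, were 0.523% to 1.15%, 0.154% to 0.589%, 0.330% to 0.796% and 0.139% to 0.531%. The mean share was 0.557% ± 0.334 (SD, n = 2) for WT and 0.408% ± 0.168 (SD, n = 2) for *Tubb3*-/- mice. The genotypes overlapped, and the difference of -0.149 percentage points gave p = 0.667 (exact permutation test with the mouse as unit, two-sided, which cannot go below 0.333). Within each genotype, replicate 1 had the higher share. The sign of the difference was set by 1 library, at 0.0873 points without WT 1. As a share of epithelial cells in these libraries, the values were 27.8%, 11.2%, 22.2% and 18.2%. With cells under 2000 UMIs left out (99, 79, 90 and 105 cells) and the others thinned to 2000 UMIs, the shares were 0.877%, 0.526%, 0.685% and 0.358%. Thinning can also remove UMIs of the excluded genes, and 29, 16, 28 and 12 cells then met the rule.

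**Figure D2:**
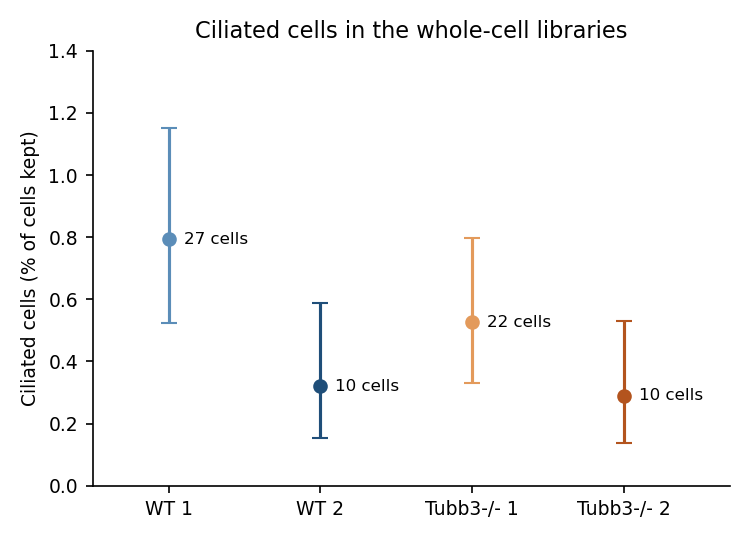
Ciliated cells as a percentage of the cells kept in each whole-cell library, with exact 95% binomial intervals. WT 1 is highest at 0.793%, and the 4 intervals overlap.

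Genotype was then compared over the 4 mice within the ciliated cells, to ask whether these cells differed although *Tubb3* was not detected in them. Of 6012 genes abundant enough to test, 3 passed an adjusted p of 0.05 (0.0499%), all lower in *Tubb3*-/- mice (edgeR quasi-likelihood test). They were *Arc*, *Sftpd* and *Ccn1*, and none is an axoneme gene. At an unadjusted p under 0.05, 366 genes were higher (6.09%) and 332 lower (5.52%). DESeq2 called 12 genes of the 1350 to which it gave an adjusted p, all lower, among them *Ccn1* and *Sftpd*. *Arc* was not among the 1350.

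*Arc*, an immediate-early gene best known from neurons, had 72 and 57 UMIs in WT and 1 and 0 UMIs in *Tubb3*-/- mice. These UMIs came from 6 of 29 cells and 4 of 12 cells in WT mice, and from 1 of 24 and 0 of 14 cells in *Tubb3*-/- mice. The groups did not overlap, and *Arc* fell by 6.74 on the log2 scale (SE 0.69, adjusted p = 0.00311, edgeR), a value that depends on the prior count since 1 mouse had no UMI. Its locus is chr15:74669083-74672570 on the minus strand. The single highest cells held 32 of the 72 and 22 of the 57 UMIs. Another 18 of the 57 were in 1 cell of the mesenchymal library, which also held 78 UMIs of *Dcn*, a fibroblast gene. With the whole-cell libraries alone the log2 difference of *Arc* was -6.355 (adjusted p = 0.000935, edgeR).

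*Ccn1*, a matricellular protein induced by serum and by stretch, had 377 and 416 CPM in WT and 118 and 134 CPM in *Tubb3*-/- mice. It fell by 1.65 on the log2 scale (SE 0.24, adjusted p = 0.0389, edgeR) and lies at chr3:145646976-145649981 on the minus strand. Its UMIs came from 14, 8, 7 and 6 cells. Of the 174 UMIs of WT 1, 101 were in 1 cell, and of the 80 UMIs of WT 2, 48 were in the mesenchymal library. With the whole-cell libraries alone its log2 difference was -2.02, with an adjusted p of 0.157 (edgeR).

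*Sftpd*, a surfactant collectin of alveolar type 2 and club cells, had 159, 44, 12 and 14 UMIs. It fell by 2.75 on the log2 scale (SE 0.34, adjusted p = 0.0119, edgeR). However, 148 of the 159 and 30 of the 44 UMIs lay in the cells that stood apart, and without those cells its log2 difference was -0.19 (adjusted p = 0.924, edgeR). *Arc* and *Ccn1* remained called without them, at log2 differences of -6.82 and -1.96.

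Below the threshold, the genes nearest to it were *Icam1*, a leukocyte adhesion molecule, and *Nr4a3*, an early-response nuclear receptor. *Icam1* had 264, 306, 90.6 and 97.5 CPM (log2 difference -1.59, adjusted p = 0.0741, edgeR). *Nr4a3* had 80.2, 125, 13.7 and 8.13 CPM (log2 difference -3.06, adjusted p = 0.0744, edgeR). Without the 4 cells that stood apart, 7 genes were called, all lower in *Tubb3*-/- mice. These were *Arc*, *Ccn1*, *Icam1*, *Nr4a3*, *Krt18*, *Sqstm1* and *Timp3*, the last 3 named after their values were seen.

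No gene was called higher by this test. The 5 with the smallest p were *Adgra3*, *Poln*, *Dcun1d3*, *Gm29266* and *AC149090.1*, with adjusted p from 0.117 to 0.206 (edgeR). *Adgra3*, an adhesion G protein-coupled receptor, had 10.8 and 10.4 CPM in WT and 82.3 and 56.9 CPM in *Tubb3*-/- mice. *Poln*, a DNA polymerase, had 17.3, 15.6, 79.6 and 73.1 CPM. *Poln*, *Dcun1d3* and *Gm29266* overlap other genes, and reads of those genes may be counted in them.

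Axonemal dynein heavy chains, the motors of the beat, mostly had higher values in the *Tubb3*-/- mice, although none was called by edgeR. Of 14 in the files 12 were tested, and 8 had an unadjusted p under 0.05, all higher, against 6.09% of all tested genes. The median log2 difference of the 12 was 0.60, against 0.02 for all tested genes. In 11 of the 12, the lower *Tubb3*-/- value was above the higher WT value, as it was in 23.2% of all tested genes. It was also so in 82 of 112 other genes at least as long as the shortest of the 12 and with a log2 ratio to other cells of at least 5. *Dnah12*, an inner arm chain, had 967 and 753 CPM in WT and 1789 and 1479 CPM in *Tubb3*-/- mice (log2 difference 0.92, SE 0.23, adjusted p = 0.286, edgeR). *Dnah5*, of the outer arm, had 681, 462, 1169 and 902 CPM, and *Dnah9*, its partner toward the ciliary tip, 522, 442, 790 and 585 CPM. *Dnah3* had 494, 317, 845 and 723 CPM and *Dnah6* 676, 675, 1210 and 918 CPM. *Dnah7a*, *Dnah7b* and *Dnah7c* are near-identical copies, whose counts may be split.

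Together the heavy chains took 0.428% and 0.384% of ciliated UMIs in WT and 0.793% and 0.653% in *Tubb3*-/- mice. Without the 4 cells that stood apart, these shares were 0.512%, 0.419%, 0.793% and 0.693%. The median over single cells was 0.507% and 0.385% in WT and 0.696% and 0.673% in *Tubb3*-/- mice. Single cells ranged from 0.190% to 2.22% among the 75 other cells, so that cells of both genotypes overlapped widely.

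The axoneme groups differed in their medians. Among all tested genes, 6.09% were higher at an unadjusted p under 0.05 and 23.2% lay above both WT mice. Of the 13 central pair genes tested, 7 had such a p, all higher, and 11 lay above both WT mice, with a median log2 difference of 0.47. *Spag16* had 416, 597, 1199 and 691 CPM and *Cfap54* 575, 452, 1013 and 768 CPM. Of the 12 inner arm genes, 6 had such a p and the median was 0.53, and of the 14 outer arm genes 3 had it and the median was 0.38. Radial spoke and nexin link genes had medians of 0.28 each, with 2 of 14 genes at that p in each group. Gene length also went with these values. Of 97 genes with a log2 ratio to other cells of at least 5 that span over 80.5 kb, 78 lay above both WT mice (median 0.55). These include *Spag16* and *Cfap54*. Of 76 such genes that span under 12.2 kb, 12 did (median 0.04). The part of gene length in the group medians was not tested.

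Genes inside the doublets and genes for assembly had medians near 0. For comparison, 23.2% of all tested genes lay above and 21.5% below both WT mice. Of the 21 microtubule inner protein and tektin genes tested, 3 lay above and 7 below both WT mice (median log2 difference -0.05). *Tppp3* was the one with an unadjusted p under 0.05 on the lower side. Of the 13 genes for dynein arm assembly in the cytoplasm, 3 lay above and 4 below (median -0.05), and *Lrrc6* had 284, 213, 373 and 386 CPM. Of the 26 intraflagellar transport genes, 12 lay above and 3 below (median 0.23), with *Dync2h1*, the retrograde motor, at 310, 312, 601 and 418 CPM. The 7 BBSome genes, which load cargo on these trains, had a median of -0.05, with *Bbs9* at 193, 203, 354 and 297 CPM. Over all 98 axoneme genes tested, 22 were higher and 1 lower at an unadjusted p under 0.05, against 6.09% and 5.52% of all tested genes, and 47 lay above and 17 below both WT mice (median 0.30, or 0.24 without the 4 cells).

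**Figure D3:**
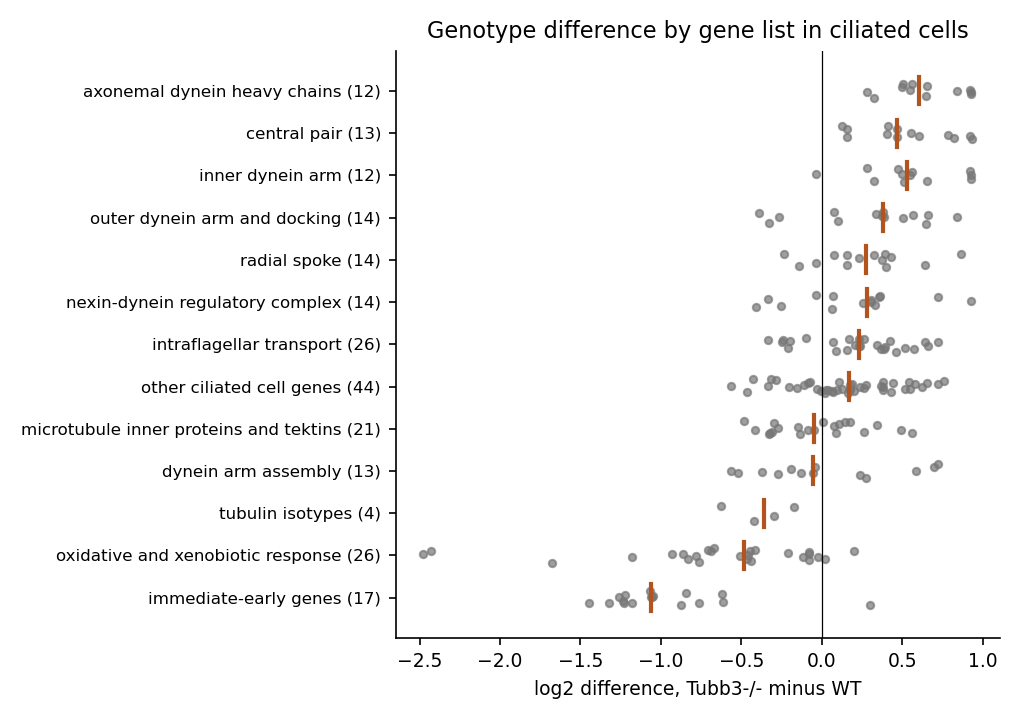
Log2 difference of *Tubb3*-/- minus WT in ciliated cells for each tested gene of each list (grey points, number tested in brackets), with the median of the list as an orange bar. The dynein heavy chains lie to the right of 0 with a median of 0.60, the microtubule inner proteins lie around 0, and most immediate-early genes lie to its left.

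The difference moved with the length of genes. The tested genes were split into 4 classes of equal size by genomic span (start to end, introns included), with bounds at 12.2, 32.8 and 80.5 kb. The median log2 difference was -0.30 in the shortest class, then -0.06, 0.14 and 0.29 in the longest. Without the 4 cells that stood apart it was -0.26, -0.08, 0.12 and 0.26. Among genes enriched in ciliated cells, the medians were 0.04, 0.14, 0.38 and 0.55, and among the other genes -0.31, -0.08, 0.12 and 0.27. The order therefore held in both classes, while in the other epithelial cells of the same mice the medians were 0.11, 0.04, -0.02 and -0.10. The tested dynein heavy chain genes span 63.5 to 382 kb. The 112 other enriched genes at least that long had a median of 0.52, against 0.60 for the heavy chains.

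**Figure D4:**
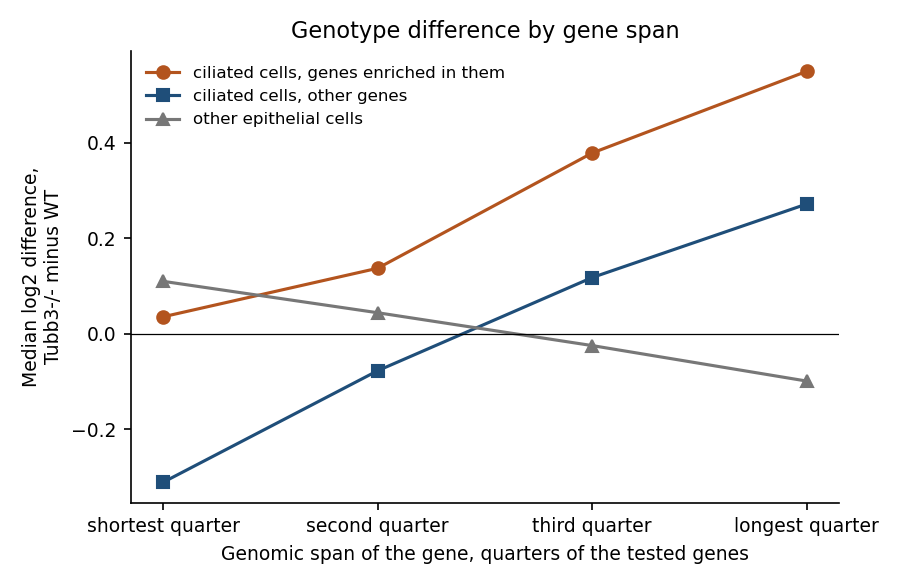
Median log2 difference of *Tubb3*-/- minus WT for 4 equal classes of the tested genes by genomic span, shortest to longest. In ciliated cells it climbs from 0.04 to 0.55 for enriched genes (circles) and from -0.31 to 0.27 for the others (squares), and in other epithelial cells (triangles) it runs from 0.11 to -0.10.

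Some measures of RNA make-up also differed between genotypes in ciliated cells. Ribosomal protein genes, which are short, took 4.72% and 4.92% of UMIs in WT and 3.27% and 4.01% in *Tubb3*-/- mice. Of these genes 77 were tested, 45 had an unadjusted p under 0.05, all lower, and 71 lay below both WT mice (median log2 difference -0.54, or -0.31 without the 4 cells). Among all tested genes, 5.52% were lower at such a p and 21.5% lay below both WT mice. In the shortest class by genomic span, 634 of 1503 genes lay below both. In the other epithelial cells the share of ribosomal protein genes ran the other way, at 8.12%, 8.29%, 9.21% and 9.11%. The nuclear RNAs *Malat1* and *Neat1* together took 1.96%, 1.84%, 2.93% and 2.27% of ciliated UMIs, and 2.33%, 1.95%, 2.93% and 2.28% without the 4 cells, where the genotypes overlapped. Mitochondrial genes took 4.42%, 4.23%, 5.96% and 4.45%, so that *Tubb3*-/- 2 lay close to WT 1. None of the 13 mitochondrial genes tested had an unadjusted p under 0.05. For each of the 3 shares above with all 79 cells the exact permutation test gave 0.333. This is the smallest p it allows, and any values without overlap between the genotypes give it. Their part in the differences of the axoneme genes was not tested.

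Immediate-early genes, which respond within minutes to stimuli and to tissue dissociation, mostly had lower values in the *Tubb3*-/- mice. Of 17 tested, 14 had an unadjusted p under 0.05, all lower in *Tubb3*-/- mice, and 15 lay below both WT mice (median log2 difference -1.06). Among all tested genes these shares were 5.52% and 21.5%. *Fos* had 1624, 2634, 1312 and 1048 CPM, *Jun* 1203, 2021, 1073 and 463 CPM, *Junb* 789, 1210, 568 and 512 CPM, and *Atf3* 976, 1106, 563 and 297 CPM. None was called by edgeR, where *Atf3* had a log2 difference of -1.26 (SE 0.28, adjusted p = 0.206). DESeq2 called *Atf3* (adjusted p = 0.0439) and *Zfp36*, an RNA-binding protein that destabilises cytokine transcripts, named after its values were seen. *Atf3* passed under 6 of 16 alternatives. *Arc*, *Ccn1* and *Nr4a3* are early-response genes too but were not on this list.

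The list took 0.843%, 1.51%, 0.717% and 0.496% of ciliated UMIs, yet the median single cell held 0.334%, 1.34%, 0.227% and 0.240%. By this median WT 2 stood apart, and WT 1 lay nearer to the *Tubb3*-/- mice than to WT 2. The same list took 1.29%, 1.28%, 1.10% and 0.955% of UMIs in other epithelial cells and 1.69%, 1.60%, 1.34% and 1.31% in all remaining cells, so that it was lower in both *Tubb3*-/- mice there too.

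**Figure D5:**
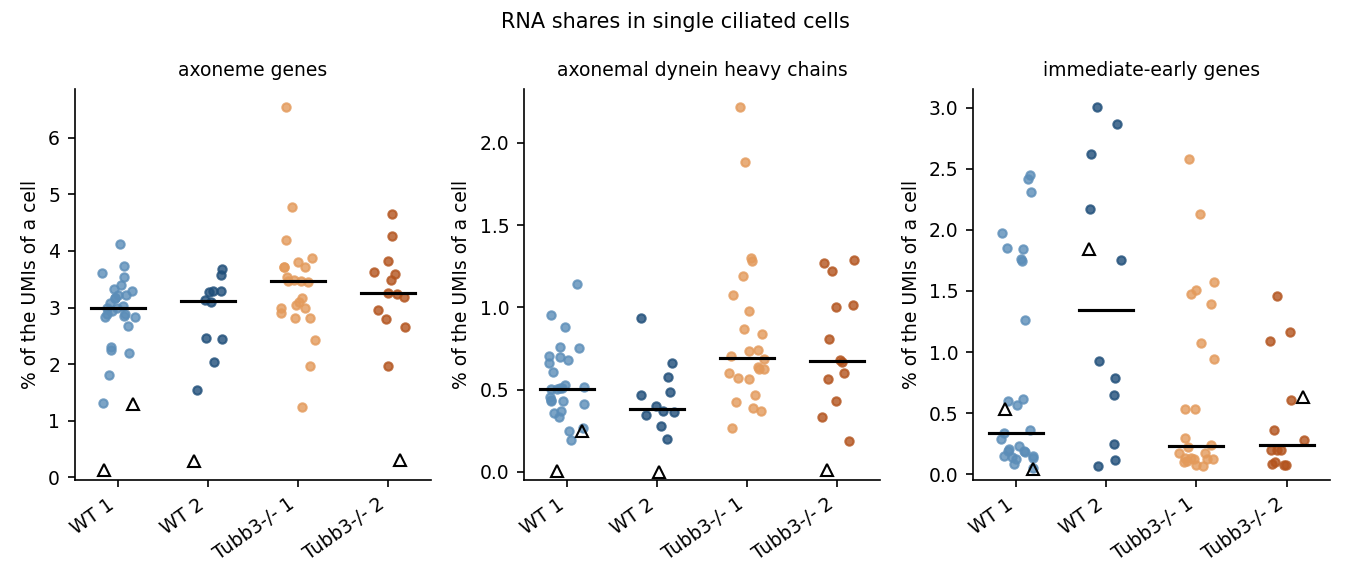
Share of UMIs taken by axoneme genes, dynein heavy chains and immediate-early genes in each of the 79 ciliated cells (circles), by mouse, with the median as a bar and the 4 cells that stood apart as open triangles. The dynein heavy chain medians are 0.507% and 0.385% in WT and 0.696% and 0.673% in *Tubb3*-/- mice, and WT 2 has the highest immediate-early median at 1.34%.

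Genes of oxidative and xenobiotic defence were also mostly lower in the *Tubb3*-/- mice. Of 26 tested, 12 had an unadjusted p under 0.05, all lower, and 17 lay below and 1 above both WT mice (median log2 difference -0.48). Among all tested genes, 5.52% were lower at such a p, 21.5% lay below and 23.2% above. *Aldh1a1*, an aldehyde dehydrogenase, had 1797, 2441, 1361 and 1231 CPM, and *Prdx6*, a peroxiredoxin, 1381, 904, 585 and 622 CPM. *Cyp2s1*, a cytochrome P450, was the member above both WT mice, at 830, 867, 897 and 1056 CPM. *Gsta3*, a glutathione S-transferase named after its values were seen, had 108, 171, 22.0 and 28.4 CPM (log2 difference -2.43, SE 0.41, adjusted p = 0.0744, edgeR). Of its 50 UMIs in WT 1, 22 lay in the 4 cells that stood apart, and 31 of its 33 UMIs in WT 2 lay in 1 cell. Without those 4 cells its log2 difference was -2.27 (adjusted p = 0.212, edgeR). None of the 26 was called by edgeR.

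Secretory genes were set apart in WT 1 by 1 cell. *Scgb1a1* had 124850 CPM in WT 1 and 1969, 2412 and 4754 CPM in the other mice, and 1 cell held 78.8% of the WT 1 UMIs. Of the 8 secretory genes tested, 4 had an unadjusted p under 0.05, all lower, against 5.52% of all tested genes. This count includes the 4 cells that stood apart. The median log2 difference of the 8 genes was -0.78, and it became -0.13 without the 4 cells. Since high *Scgb1a1* was a ground for setting cells apart, this change was in part fixed by that choice. *Cbr2*, a carbonyl reductase of club and ciliated cells, had 5505, 4504, 2467 and 2917 CPM, and *Cyp2f2*, a club cell cytochrome P450, 2365, 2384, 1136 and 1377 CPM. Both were called by DESeq2 and not by edgeR. The secretory list took 0.702% to 0.974% of ciliated UMIs in the mice other than WT 1, where it took 11.2%.

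Most marker lists of other cell types were low in these cells, and *Sftpd* was the only gene on them called by edgeR. Alveolar type 1 genes were not low, at 0.0716%, 0.160%, 0.0617% and 0.0754% of ciliated UMIs. In the remaining cells of all types they took 0.0694%, 0.0909%, 0.0675% and 0.0727%. Without the 4 cells that stood apart, their ciliated shares were 0.0702%, 0.0758%, 0.0617% and 0.0702%. The immune, fibroblast and endothelial lists each hold a gene that the rule excluded, so that their low shares were in part set by the rule. Immune genes took 0.0377% to 0.0469% of ciliated UMIs against 0.562% to 0.793% in the remaining cells of all types. Fibroblast genes took 0.0491% to 0.123% against 1.22% to 1.91%, and endothelial genes 0.00252% to 0.00389% against 0.0365% to 0.0838%. The basal keratins *Krt5*, *Krt14* and *Krt15* had no UMI. *Sftpc*, an alveolar type 2 gene, had 197, 125, 296 and 211 CPM in ciliated cells, found in 94.9% of them, with a median of 3 UMIs per cell.

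The genotype difference in ciliated cells was last compared with that in other epithelial cells of the same mice. The latter were 921 cells with at least 3 of *Epcam*, *Cdh1*, *Krt8*, *Krt18*, *Krt19*, *Cldn7* and *Cldn18*. They numbered 70, 79, 77 and 45 in the whole-cell and 144, 178, 162 and 166 in the mesenchymal libraries, while most ciliated cells came from whole-cell libraries. Class therefore went with library type, here and wherever other epithelial cells of all libraries are used above. Mesothelial genes took 0.171% to 0.225% of the UMIs of these other epithelial cells, against 0.0148% to 0.0267% in the remaining cells. In the other epithelial cells alone, none of 12821 genes was called by edgeR, with 1617 at an unadjusted p under 0.05. The difference between the classes passed an adjusted p of 0.05 for 8 of 13133 genes (0.0609%), with 1170 at an unadjusted p under 0.05. It was negative, meaning lower in *Tubb3*-/- ciliated cells relative to the other class, for *Arc*, *Sftpd*, *Scgb3a2*, *Ager*, *Shroom4*, *Cyp2f2* and *Nr4a3*, and positive for *Cxcl10*.

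Without the 4 cells that stood apart, *Arc*, *Cxcl10*, *Cyp2f2*, *Nr4a3* and *Shroom4* of these 8 remained called, among 29 genes. With the whole-cell libraries alone, *Arc*, *Cyp2f2*, *Scgb3a2* and *Shroom4* of the 8 remained called, among 9 genes. *Arc* had a log2 difference of -6.21 between the classes (adjusted p = 0.0324, edgeR), as against -0.66 for genotype in other epithelial cells alone. *Cyp2f2* had a log2 difference of -0.92 in ciliated and 0.82 in other epithelial cells, and the difference of -1.79 had an adjusted p of 0.0353 (edgeR). No axoneme gene was among the 8.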

How the data were processed

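The authors tagged cells of each mouse (10x 3' CellPlex), sequenced 2 pools, and counted UMIs per gene and cell with Cell Ranger 7.1.0 on mm10 with an added *Cre* gene. The deposited values are raw counts. Whether intronic reads or strand were used in counting is not given in the sources used here. Tag rows, 26.2% to 36.4% of UMIs, were set aside, and the main tag matched the mouse in every library (88.1% to 94.7% of tag UMIs). The labels tie tags, not separate samples, to genotype and mouse. The tag libraries were not used.

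Cells with 200 to 7500 genes and at most 15% mitochondrial UMIs were kept, as the study's methods do. UMIs of ciliated cells were summed per mouse over both libraries and tested by the quasi-likelihood method of edgeR 4.0.16 (R 4.3.3), after filterByExpr and TMM scaling, with Benjamini-Hochberg adjustment over all genes. The comparison with other epithelial cells used the genotype by class term with mouse as a block. Doublets were scored with Scrublet per pool in scanpy 1.11.5 and were kept in the main result. DESeq2 1.42.0 was an alternative. Scripts were tested on simulated data.

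The members, lists and tests were chosen with earlier results of these data known. Genes are named where they belong to the rule for cells, are among the 4 most abundant of a list, were called or nearest to it in a test (mean of at least 10 CPM), or were among the 15 with the largest ratio to other cells. *Timp3*, *Sqstm1* and the genes of centriole amplification, and heavy chains and list members outside the top 4, were added after their values were seen. 1 gene that this rule names is not reported here. Gene coordinates are those of GENCODE vM21 (mm10). With 2 mice a group, p-values rest on 4 animals.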

Additional observations from a re-analysis of the deposited data

Results flagged for a closer look

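For 8 genes, the genotype difference in ciliated cells differed from that in other epithelial cells by the interaction term in edgeR, out of 13133 genes tested. The log2 difference between the classes was -6.21 for *Arc*, -2.02 for *Shroom4*, an actin-binding protein, -1.79 for *Cyp2f2* and -2.86 for *Nr4a3*. For *Sftpd*, *Scgb3a2* and *Ager* it was -2.63, -3.56 and -3.81. In WT 1, 170 of 182 *Scgb3a2* UMIs and 45 of 51 *Ager* UMIs lay in the cells that stood apart, as did 69 of 70 *Ager* UMIs in WT 2. None of these 3 was called without those cells. *Cxcl10*, an interferon-induced chemokine, had a log2 difference of 4.83 between the classes. It had 1, 0, 20 and 7 UMIs in ciliated cells, and 19 of the 20 UMIs of *Tubb3*-/- 1 were in 1 cell. All 7 UMIs of *Tubb3*-/- 2 came from the mesenchymal library, 5 of them from a cell that stood apart. *Cxcl10* was not called with the whole-cell libraries alone, and was not among the genes tested for genotype in ciliated cells. *Shroom4* had 91, 27, 25 and 11 UMIs, of which 51, 18, 15 and 6 were in the highest cell of each mouse.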

How the results depend on the processing

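With 3 and 8 genes called, the counts moved with most settings. For genotype, the count was 110 without a filter on low counts, 41 to 107 when 1 mouse was left out, 12 with DESeq2, 1 in whole-cell libraries only, 9 with 4 of 5 genes required and 0 with 2 of 5 (499 at an unadjusted p under 0.05). It was 7 without the 4 cells that stood apart and 5 with 1 UMI of an excluded gene allowed. Counts between the classes were 69 without the filter, 18 to 87 with a mouse left out, 42 and 3 under 4 and 2 of 5 genes, 29 with a mitochondrial limit of 10%, 5 with *Epcam* or *Cdh1* required, 29 without the 4 cells and 13 with 1 such UMI. The share difference of -0.149 points ranged from -0.385 to 0.0873 points with a mouse left out, positive without WT 1 and against epithelial cells (0.666 points). Other settings kept it negative. With 1 UMI allowed and the cells standing apart left out, *Sftpd* reversed to 0.12 (genotype) and 0.31 (between classes) and *Scgb3a2* to 0.24. *Arc* passed under 14 of 15 alternatives and was lost with 2 of 5 genes. DESeq2 gave *Arc* no adjusted p and is not among these 15. *Ccn1* passed under 14 of 16, and was lost in whole-cell libraries only (log2 difference -2.02, adjusted p = 0.157, edgeR) and with 2 of 5 genes. Leaving out a mouse leaves 1 mouse in a group, assumed to vary like the other group. The 2 of 5 gate, the 4 cells and the allowed UMI were chosen after seeing the data. The cause of these changes was not tested. Each mouse gave 12 to 29 cells, which limits the precision for low genes.

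A replicate block gave 29 calls in edgeR (4 higher, 25 lower), including all 3, and among the others *Adgra3* (adjusted p = 0.0250) and *Poln* (adjusted p = 0.0474), both higher, and *Atf3* (adjusted p = 0.0250) and *Gsta3*, both lower. The numbers share only a name and the sex of the mice, and the replicate differences of the genotypes had a correlation of 0.0917 across genes, 0.0553 without sex genes and 0.120 at a mean of at least 100 CPM.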
